A study of Mus musculus with 6 samples.

Results

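Integrins are adhesion receptors of the cell surface, each built from 1 alpha and 1 beta chain. The alpha chain largely sets the ligand, and the beta chain carries the cytoplasmic tail to which talin and kindlin bind when a cell switches the receptor on. In lymphocytes, integrins with the Itgb2 chain bind ICAMs and arrest cells on endothelium, those with Itgb1 bind collagens, laminins, fibronectin or VCAM-1, and those with Itgb7 bind MAdCAM-1 or E-cadherin. In mouse liver, CD49a, the product of Itga1, marks the resident ILC1s (innate lymphoid cells that make interferon-gamma), and CD49b, the product of Itga2, marks conventional natural killer (NK) cells.

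The 10 integrin genes described here are Itga1, Itga2, Itga4, Itgae, Itgal, Itgam, Itgax, Itgb1, Itgb2 and Itgb7, taken by symbol from a table of 15601 genes. Itgam has 2 rows in that table, so there are 11 rows in all. RNA was sequenced from liver lymphocytes of mice, with 3 libraries from animals given oil, the vehicle, and 3 from animals given tamoxifen, an oestrogen receptor ligand that also activates Cre recombinases fused to that receptor. The title of the study concerns RORα in ILC1s, while the sample labels say only lymphocyte. The sources used here do not state the genotype, strain, age, dose, sort or number of animals or cells behind a library, so the replicates may be technical and p-values measure the spread between these libraries.

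Library totals were 5289803 to 6325899 counts, and 13060 to 13414 genes were counted in each library. CPM here means counts scaled to library size with TMM factors (trimmed mean of M-values). Markers shared by ILC1s and NK cells were counted in every library, with Ncr1 (NKp46) at means of 1227 and 1241 CPM in oil and tamoxifen. The scarcest of that list, Zfp683, had means of 8.04 and 5.75 CPM. Markers of ILC1s and of NK cells stood side by side, the former summing to 1356 to 2476 CPM in oil and 1480 to 1837 in tamoxifen, and the latter to 2987 to 3681 and 2889 to 3117. The libraries differed in how strongly they represented long genes: the slope of log2 CPM, relative to each gene's mean, on the log2 of gene length was 0.04, 0.11 and -0.08 in oil replicates 1, 2 and 3 and -0.06, 0.05 and -0.06 in tamoxifen replicates 1, 2 and 3.

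Tamoxifen was compared with oil, the only contrast of the series. The lowest estimates in tamoxifen were those of Itga1, 2.29-fold lower, and Itga2, 1.86-fold lower, followed by the main Itgam model (1.64-fold), Itgax (1.52-fold) and Itga4 (1.36-fold). In Itga1, Itga2 and Itga4, the alpha chains among the 10 genes that pair with Itgb1, all tamoxifen libraries lay below all oil libraries. The beta chains differed little, with estimated differences of 1.01-fold to 1.18-fold. Itgae, a scarce transcript, was the one row whose tamoxifen libraries all lay above the oil libraries. None of the 11 rows passed edgeR's quasi-likelihood test at a Benjamini-Hochberg adjusted p under 0.05 over all 10811 genes tested, where 0.00925% of genes did, and none passed with limma-voom or with DESeq2, which called 0.166% of genes. Of the 11 rows 9 had a lower estimate in tamoxifen, against 50.5% of all genes. At an unadjusted p under 0.05 there were 4 of the 11, Itga1, Itga2, Itga4 and Itgax, all with lower estimates. Of all 10811 genes tested, 1.82% had both such a p and a lower estimate. The count of 4 rested on single libraries: it was 1, Itga1, without oil replicate 1, without oil replicate 2 or without tamoxifen replicate 3, and 2, Itga1 and Itga2, without tamoxifen replicate 1. Without oil replicate 3 it was 7, with the main Itgam model, Itgb1 and Itgb7 added. The count also varied with the method, although it stayed 4 with DESeq2. With limma-voom and with filtered log2 FPKM it was 3: Itga1, Itga2 and Itgae, the last with a higher estimate. With a length trend per library as an offset it was 3, Itga1, Itga2 and Itgax. With no filter it was 5 in edgeR, the main Itgam model added, and 2 on log2 FPKM, Itga1 and Itgae. Groups that did not overlap, with tamoxifen below, were seen in 3 of 11 rows against 4.35% of all genes, and with tamoxifen above in 1 of 11 against 4.52%. The median log2 fold change was -0.27 over the 11 rows and 0.00 over all genes. The genes were chosen with earlier results of these data known, so these counts describe them and do not test them as a set. RNA of bulk libraries cannot tell fewer cells of a type from less RNA per cell.

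**Figure D1:**
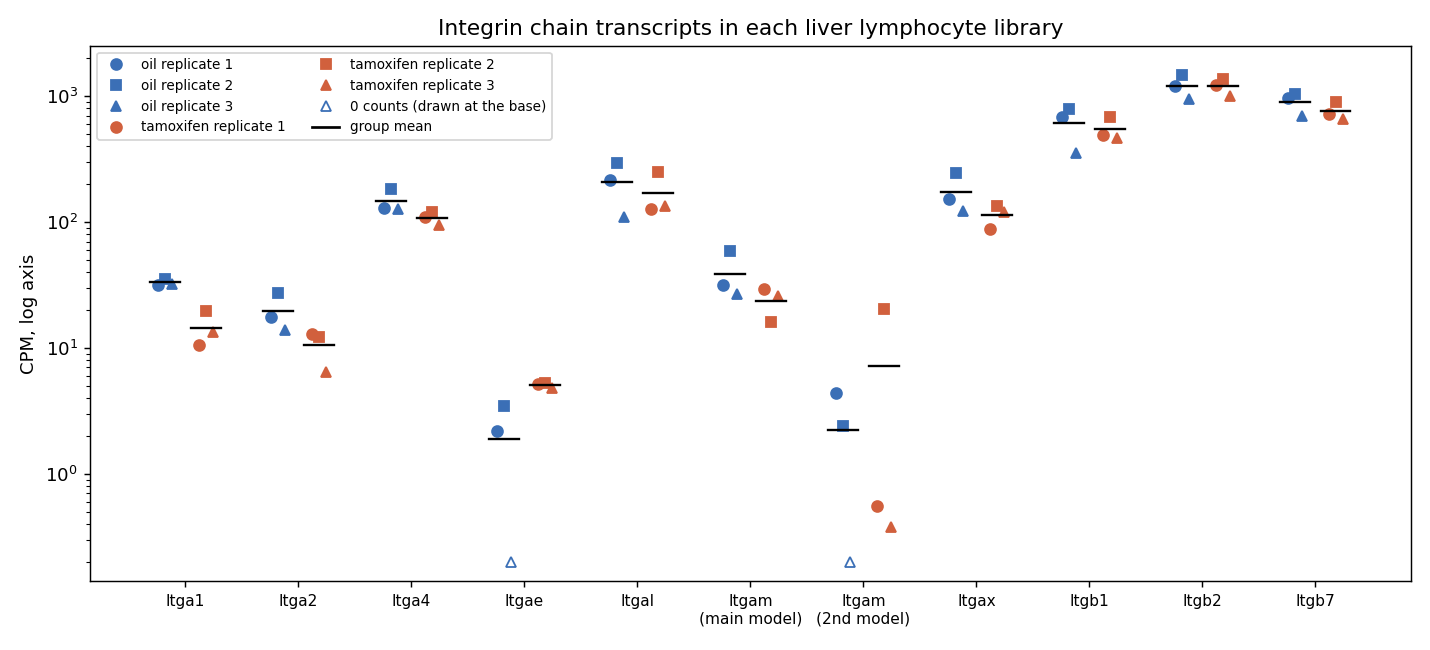
CPM (log axis) of the 11 integrin rows in each of the 6 libraries; blue symbols are oil, orange symbols tamoxifen, the symbol's shape gives the replicate, and bars are group means (n = 3). Open symbols at the base are libraries with 0 counts. The Itga1 values in tamoxifen, 10.6 to 19.6 CPM, all lie below those in oil, 31.9 to 35.5 CPM, while the beta chains overlap.

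Itga1 encodes CD49a, the alpha chain of a receptor for collagens (chromosome 13, 114958079 to 115101964, minus strand, mm10). Its counts were 205, 194 and 175 in oil and 57, 118 and 70 in tamoxifen. After scaling these were 31.9, 35.5 and 32.3 CPM in oil and 10.6, 19.6 and 13.4 CPM in tamoxifen. The oil libraries were nearly level, at 33.2 ± 1.97 CPM (SD, n = 3), and the tamoxifen libraries lay lower and further apart, at 14.5 ± 4.60 CPM. Replicate 2 was the highest of the tamoxifen libraries and still stood well under the lowest oil library. The log2 fold change was -1.19 (SE 0.29, 95% interval -1.83 to -0.55), the 25th smallest p of 10811 (unadjusted p = 0.00179, edgeR's quasi-likelihood test; adjusted p = 0.766). The authors' deposited table gives Itga1 a p-value of 0.000427 and a q-value of 0.148. The adjusted p of Itga1 was 0.0767 with DESeq2, the lowest over the alternatives, and 0.678 with limma-voom. Leaving out 1 library at a time moved the log2 fold change between -1.47 (without tamoxifen replicate 2) and -1.02 (without tamoxifen replicate 1), and with each library's length trend as an offset it was -1.18. Of the exon bases of Itga1, 3.68% are also exon bases of Gm49395 on the same strand, a gene without a row of its own here.

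Itga2 encodes CD49b, the alpha chain of another collagen receptor, and lies next to Itga1 on the same strand (chromosome 13, 114835916 to 114932041). It had 114, 148 and 76 counts in oil and 69, 74 and 34 in tamoxifen, or 17.7, 27.1 and 14.0 CPM against 12.8, 12.3 and 6.49 CPM. The groups did not overlap, but oil replicate 3 stood only just above tamoxifen replicates 1 and 2. The log2 fold change was -0.90 (SE 0.38, 95% interval -1.72 to -0.07; edgeR adjusted p = 0.999), and it was -0.59 without oil replicate 2 and -0.65 without tamoxifen replicate 3. Expression of the ILC1 integrin relative to the NK integrin gave no clear difference: the log2 ratio of Itga1 to Itga2 CPM was 0.83, 0.39 and 1.18 in oil and -0.27, 0.66 and 1.00 in tamoxifen. These values overlapped, with means of 0.80 ± 0.40 and 0.46 ± 0.66 (SD, n = 3; exact permutation test, two-sided, p = 0.6; no split of 3 against 3 can give less than 0.1). Other markers of the ILC1 list were mixed, 5 higher and 8 lower after tamoxifen (median log2 fold change -0.06), and of the NK list 3 were higher and 9 lower with a median of -0.11. Of those lists, Cxcr6, a chemokine receptor of liver ILC1s, had a log2 fold change of -1.47 (SE 0.29), Il7r, the interleukin-7 receptor, 1.01 (SE 0.33), Ly6c2 -0.58 (SE 0.21) and Zeb2, a transcription factor of mature NK cells, -0.78 (SE 0.45). None of the 4 passed (edgeR adjusted p = 0.385 for Cxcr6 and 0.999 for the others).

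The 250 bases before the RefSeq start sites of this neighbouring pair are shown because both genes had lower estimates in tamoxifen and because the study concerns RORα, a nuclear receptor that binds AGGTCA preceded by an A/T-rich stretch. Sequences are from RefSeq (GRCm38.p6, the build called mm10), 5′ to 3′ on the minus strand, at chr13:115101965-115102214 for Itga1 and chr13:114932101-114932350 for Itga2, and capitals mark matches to the motifs named next.
Itga1: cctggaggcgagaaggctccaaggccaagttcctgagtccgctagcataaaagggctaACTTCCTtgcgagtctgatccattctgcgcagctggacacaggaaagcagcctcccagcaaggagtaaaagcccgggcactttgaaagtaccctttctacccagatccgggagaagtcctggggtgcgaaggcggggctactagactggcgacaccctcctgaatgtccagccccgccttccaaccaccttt
Itga2: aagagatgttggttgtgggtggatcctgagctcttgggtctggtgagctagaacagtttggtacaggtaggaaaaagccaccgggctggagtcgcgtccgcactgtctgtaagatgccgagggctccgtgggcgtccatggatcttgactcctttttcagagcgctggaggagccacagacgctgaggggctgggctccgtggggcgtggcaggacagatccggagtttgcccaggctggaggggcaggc
The letters searched on both strands were AGGTCA (nuclear receptor half-site), GGTGTGA (T-box factors such as T-bet and Eomes), TGTGGT (RUNX), AGGAAGT (ETS) and GGGCGG (GC box). The Itga1 window held 1 match, to the ETS letters on the opposite strand at position -192, and the Itga2 window held none. Promoters were listed for 7 of the 10 genes, and AGGTCA occurred in none of the 7 windows, compared with 14% of the 32851 promoters in the RefSeq table. The T-box and RUNX letters occurred only in the Itga4 window among the 7, at positions -165 and -60, against 3.33% and 14% of all promoters, and the GC box in those of Itga4, Itgam and Itgb1, against 32.7%. AGGAAGT was found in 7.69% of all promoters. A match or its absence describes these letters in these windows and not the binding of a factor.

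Itga4 encodes CD49d, which pairs with Itgb1 to bind VCAM-1 and fibronectin and with Itgb7 to bind MAdCAM-1 (chromosome 2, 79255426 to 79333123, plus strand). It stood at 130, 184 and 126 CPM in oil and 109, 119 and 94.9 CPM in tamoxifen. All tamoxifen libraries lay below all oil libraries, although the gap between oil replicate 3 and tamoxifen replicate 2 was small. The log2 fold change was -0.45 (SE 0.20; edgeR adjusted p = 0.999), from totals of 2528 counts in oil and 1806 in tamoxifen. It was -0.25 without oil replicate 2 and -0.34 with the length trend as an offset. Of the exon bases of Itga4, 8.04% are also exon bases of Cerkl on the other strand, and the sources used here do not say whether strand was used in counting.

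Itgae encodes CD103, the partner of Itgb7 that binds E-cadherin on epithelium and marks many intraepithelial lymphocytes (chromosome 11, 73090583 to 73147446, plus strand). It was among the scarcest of the rows, with 14, 19 and 0 counts in oil and 28, 32 and 25 in tamoxifen. These were 2.18, 3.48 and 0 CPM in oil and 5.19, 5.30 and 4.77 CPM in tamoxifen, so the tamoxifen libraries were almost level and all above the oil libraries. The count of 0 in oil replicate 3 leaves room for 3 counts, or 0.529 CPM, by counting error. The log2 fold change was 1.42 (SE 0.85, 95% interval -0.45 to 3.29; edgeR adjusted p = 0.999), and it was 0.84 without oil replicate 3, the library at 0. Over the other alternatives with all libraries it ranged from 0.60 (on log2 of FPKM + 1) to 2.46 (limma-voom). T cells can also carry CD103, and T cell markers summed to 1025 to 1303 CPM in oil and 910 to 1323 CPM in tamoxifen. Most of that sum came from Trbc1 and Trbc2, at 366 and 365 CPM in oil and 331 and 362 in tamoxifen. Cd28, Cd3g, Trac, Cd3d and Cd3e stood at 111, 107, 68.9, 65.1 and 32.0 CPM in oil. In tamoxifen they stood at 97.3, 127, 79.3, 84.0 and 33.7 CPM. Cd4 stood at 1.53 and 0.276 CPM in oil and tamoxifen, and Cd8b1 at 0 and 0.509. Cd8a was not among the rows analysed here. The part of T cells in the Itgae values was not tested.

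Among the 10 genes the partners of Itgb2 were Itgal, Itgam and Itgax, all on chromosome 7. Itgal encodes CD11a, which forms LFA-1, the main ICAM receptor of lymphocytes (127296260 to 127335138, plus strand). It stood at 214, 293 and 110 CPM in oil and 126, 250 and 135 CPM in tamoxifen. Oil replicate 3 was the lowest of all 6 libraries and oil replicate 2 the highest, so the groups overlapped fully. The log2 fold change was -0.27 (SE 0.35, 95% interval -1.04 to 0.49), and without oil replicate 2 it was 0.07.

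Itgax encodes CD11c, best known on dendritic cells and also found on mouse NK cells (128129547 to 128150657, plus strand). It stood at 153, 244 and 123 CPM in oil and 87.2, 134 and 121 CPM in tamoxifen. The groups overlapped, since oil replicate 3 lay below tamoxifen replicate 2, and oil replicate 2 stood far above the rest. The log2 fold change was -0.60 (SE 0.27; edgeR unadjusted p = 0.0449, adjusted p = 0.999) and only -0.27 without oil replicate 2. Of 11 dendritic cell markers, 9 were listed, and they summed to 23.4 to 45.4 CPM in oil and 31.5 to 38.6 in tamoxifen, less than Itgax alone in every library. Their sum was lowest in oil replicate 2, where Itgax was highest. Of those markers 5 were tested, 3 with higher and 2 with lower estimates in tamoxifen (median log2 fold change 0.38), and none passed. The 2 lower ones, Zbtb46 (7.56 and 2.21 CPM in oil and tamoxifen) and Xcr1 (5.30 and 0.917 CPM), lay lower in every tamoxifen library than in every oil library. The 3 higher ones encode or accompany MHC class II, with log2 fold changes of 0.64 (SE 0.47) for Cd74, 0.54 (SE 1.17) for H2-Eb1 and 0.38 (SE 0.37) for H2-Ab1. H2-Aa, too scarce to test, stood at 0 to 0.185 CPM in oil and 1.67 to 1.82 CPM in tamoxifen. The part of these cells in the Itgax values was not tested.

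Itgam encodes CD11b, an alpha chain of myeloid cells and mature NK cells, and was counted under 2 models. The main model (ENSMUSG00000030786; 128062640 to 128118491, plus strand) had 202, 321 and 145 counts in oil and 160, 97 and 135 in tamoxifen. A second model (ENSMUSG00000108596; 128062683 to 128128160), named Gm49368 in GENCODE release M21, shares 71.8% of its exon bases with the main one and ends just before Itgax. It had 28, 13 and 0 counts in oil and 3, 124 and 2 in tamoxifen, so tamoxifen replicate 2 held nearly all the tamoxifen counts and was at the same time the lowest library for the main model. The second model took 56.1% of the counts of both models in that library and 0 to 12.2% in the other 5. On its own the main model had a log2 fold change of -0.71 (SE 0.35) and the second 1.66 (SE 1.32), the latter turning to -2.22 without tamoxifen replicate 2. The main model stood at -0.29 without oil replicate 2 and at -0.49 without tamoxifen replicate 2. Summed over both models, Itgam had 230, 334 and 145 counts in oil and 163, 221 and 137 in tamoxifen, or 35.8, 61.1 and 26.8 CPM against 30.2, 36.6 and 26.2 CPM. The summed log2 fold change was -0.41 (SE 0.32; edgeR adjusted p = 0.999), with overlapping groups and oil replicate 2 again highest. The sources used here do not state how reads that match both models were assigned. Of 13 macrophage markers, 11 were listed, and they summed to 30.2 to 35.7 CPM in oil and 35.8 to 38.3 CPM in tamoxifen, higher in every tamoxifen library. Most of that sum was Cd68, at means of 20.8 and 28.4 CPM in oil and tamoxifen. Csf1r, the receptor on which macrophages depend, went the other way, at 4.98, 9.88 and 5.54 CPM in oil and 4.26, 3.31 and 2.10 CPM in tamoxifen (log2 fold change -1.07, SE 0.51), below oil in every tamoxifen library. Like Itgam, it was highest in oil replicate 2, and the part of macrophages in the Itgam values was not tested. The only neutrophil marker listed, Ly6g, was at 0 in 5 of 6 libraries.

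**Figure D2:**
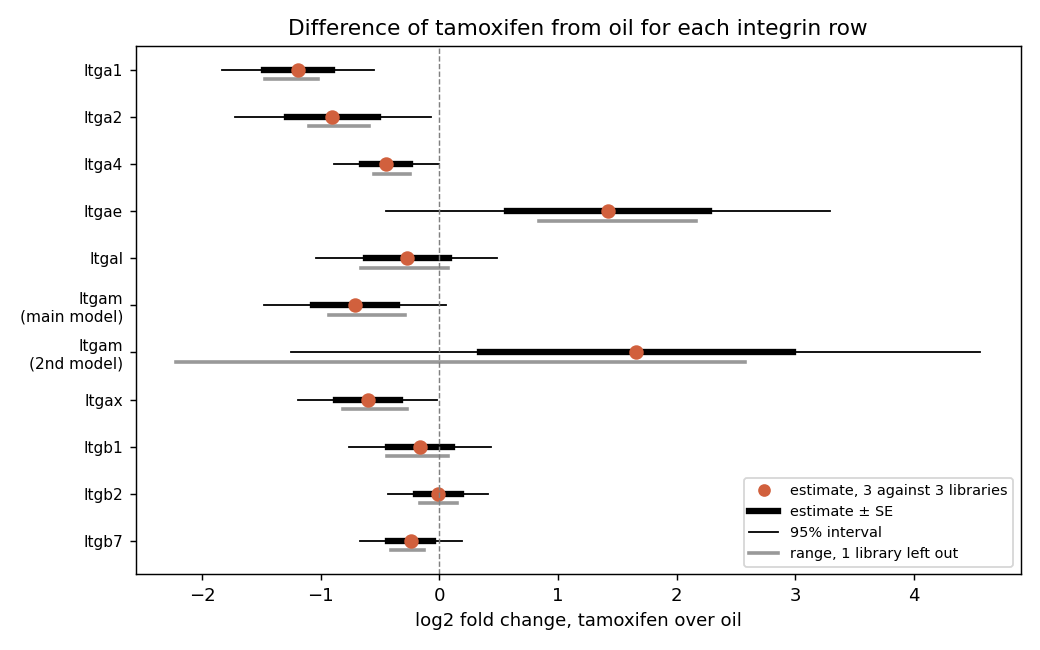
Log2 fold change of tamoxifen over oil (x axis) for each integrin row, with its SE (thick line), its 95% interval (thin line) and the range over 6 fits that each left out 1 library (grey). Itga1 stays between -1.47 and -1.02 in those fits, while the second Itgam model runs from -2.22 to 2.58.

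The beta chains were by far the most abundant integrin transcripts. Itgb2 encodes CD18, the partner of all CD11 chains (chromosome 10, 77530252 to 77565708, plus strand), and stood at 1203, 1461 and 947 CPM in oil and 1230, 1354 and 1008 CPM in tamoxifen. The 2 groups covered the same range, with means of 1204 ± 257 and 1197 ± 175 CPM (SD, n = 3). Its log2 fold change was -0.01 (SE 0.19), with a 95% interval of -0.43 to 0.41.

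Itgb7 encodes the beta chain of the gut-homing receptor of lymphocytes (chromosome 15, 102215995 to 102231935, minus strand). It stood at 971, 1031 and 691 CPM in oil and 722, 902 and 652 CPM in tamoxifen. The groups overlapped, because oil replicate 3 lay below tamoxifen replicates 1 and 2, and the log2 fold change was -0.24 (SE 0.19, 95% interval -0.67 to 0.19). It ranged from -0.41 without oil replicate 3 to -0.13 without oil replicate 2. Itgb1 encodes CD29, the partner of the collagen receptors and of CD49d (chromosome 8, 128685654 to 128733200, plus strand). It stood at 682, 789 and 354 CPM in oil and 487, 681 and 463 CPM in tamoxifen. Its lowest library and its highest were both oil libraries, replicates 3 and 2, and the log2 fold change was -0.16 (SE 0.27, 95% interval -0.76 to 0.44). No beta chain passed (edgeR adjusted p = 0.999 for all 3).

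For each beta chain the SD of the oil libraries exceeded the difference between the group means. Oil replicate 2 was the highest library in 9 of the 11 rows, all but Itgae and the second Itgam model, and the 11 rows summed to 4130 CPM there. Oil replicate 3 had the lowest sum, 2424 CPM, oil replicate 1 had 3440 CPM, and tamoxifen replicates 1, 2 and 3 had 2820, 3514 and 2525 CPM. Markers of platelets and erythroid cells summed to 136, 4.94 and 570 CPM in oil replicates 1, 2 and 3 and to 201, 76.2 and 233 CPM in tamoxifen replicates 1, 2 and 3, nearly all of it haemoglobin transcripts such as Hba-a1. The libraries stood in the reverse order by this sum, and its part in the integrin values was not tested. Itgal, Itgb1 and Itgb7 were highest in oil replicates 1 and 2 and tamoxifen replicate 2, the same 3 libraries in which long genes were represented most strongly. By the authors' length they have 9427, 5655 and 2791 bases, so Itgb7 is shorter than the median tested gene (5106 bases). Itga4, the longest row at 15604 bases, was instead higher in oil replicate 3 than in tamoxifen replicate 2 (126 and 119 CPM). The median deviation of the 5518 tested genes of 5 kb or longer was 0.07, 0.14 and 0.09 (log2) in these 3 libraries and -0.09 to -0.04 in the others. With each library's length trend as an offset, the log2 fold changes were -0.23 for Itgal, -0.14 for Itgb1 and -0.28 for Itgb7. Without the offset they were -0.27, -0.16 and -0.24. In Itga1, oil replicate 3 stood level with oil replicate 1 (32.3 and 31.9 CPM). Replicate 2 was the highest library of each group, at 35.5 CPM in oil and 19.6 in tamoxifen. With the offset the log2 fold change of Itga1 was -1.18. Beyond the offset, the part of gene length in the integrin values was not tested.

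**Figure D3:**
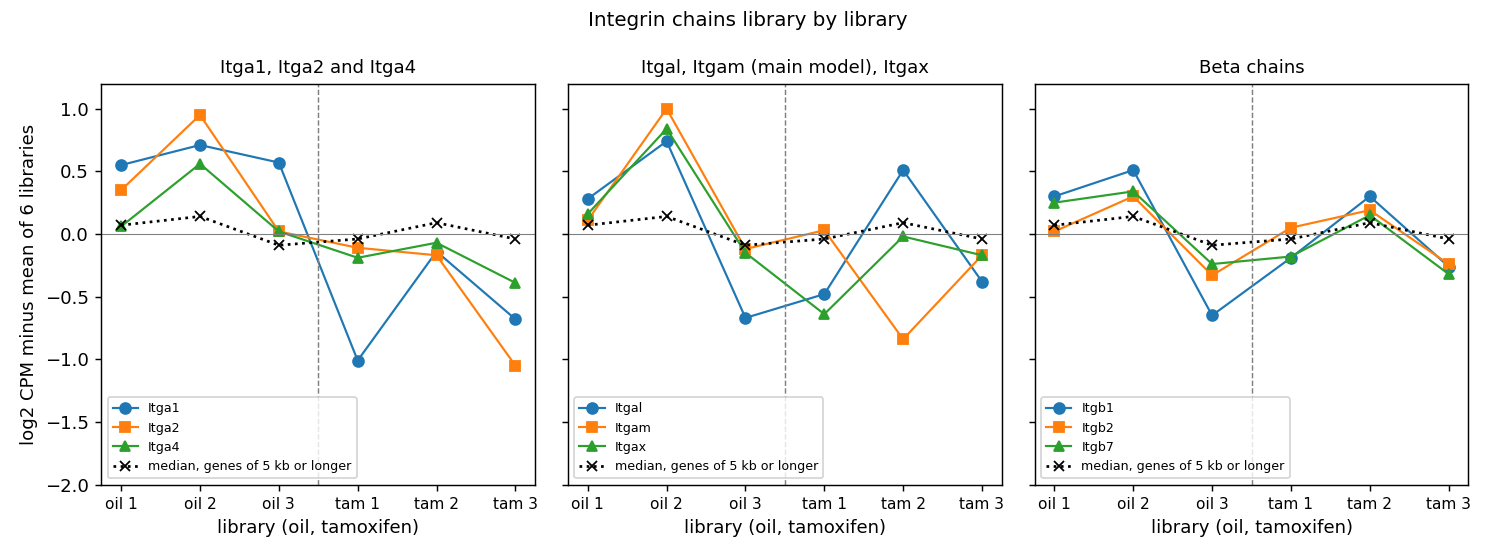
Log2 CPM of 9 integrin rows minus the row's mean over the 6 libraries (y axis), library by library (oil left of the dashed line, tamoxifen right). Crosses give the median of tested genes of 5 kb or longer. Oil replicate 2 is highest in every row shown, and Itga1 runs from 0.55 to 0.71 in oil and from -1.01 to -0.14 in tamoxifen.

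Levels of different chains were compared per length, as the authors' FPKM (counts scaled to gene length and library total). In oil the order was Itgb7 (324 ± 77.1 FPKM), Itgb2 (260 ± 65.1), Itgb1 (109 ± 43.8), Itgax (33.0 ± 13.2), Itgal (22.1 ± 10.5), Itga4 (9.47 ± 2.41), Itga1 (5.57 ± 0.505), the main Itgam model (5.47 ± 2.60), Itga2 (4.70 ± 1.77), the second Itgam model (0.435 ± 0.420) and Itgae (0.413 ± 0.386; SD, n = 3). Among neighbours in this order, the ranges over the libraries overlapped for Itgb7 and Itgb2, for Itgax, Itgal and Itga4 in turn, for Itga1, Itgam and Itga2 in turn, and for the last 2 rows. They did not overlap between Itgb2 and Itgb1, Itgb1 and Itgax, Itga4 and Itga1, or Itga2 and the second Itgam model. In tamoxifen the first 6 places were the same, and Itga1 came after Itgam and Itga2, at 2.42 ± 0.851 FPKM against 3.27 ± 0.877 and 2.49 ± 0.851, with overlapping ranges. The order depends on gene length in 2 places. By the authors' length, Itgb7 stood above Itgb2 in 5 of 6 libraries, and by the union of GENCODE M21 exons, in which Itgb2 is 3052 instead of 4661 bases long, in 0 of 6. Itga1 has 18599 exon bases in GENCODE M21 and 5984 by the authors' length, and its mean over all libraries was 1.29 FPKM by the former and 4.0 by the latter. GENCODE M21 puts its 3' end at 114953096 instead of 114958079, which covers only part of the difference in length.

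Beta chain transcripts outnumbered those of their alpha partners among the 10 genes in every library. Other partners are not in these sums. Itga5, a partner of Itgb1, stood at means of 6.67 and 4.86 FPKM in oil and tamoxifen. Itgad, a partner of Itgb2, stood at 2.86 and 2.57 FPKM. Ratios and shares with them included were not computed. By the authors' lengths, Itgb7 stood at 29.4 to 39.5 times the sum of Itga4 and Itgae, Itgb2 at 3.65 to 7.75 times the sum of Itgal, Itgam and Itgax, and Itgb1 at 3.72 to 8.73 times the sum of Itga1, Itga2 and Itga4. For Itgb1 the log2 ratio of alpha to beta was -2.75, -2.53 and -1.90 in oil and -2.87, -3.13 and -3.06 in tamoxifen. By the authors' lengths all tamoxifen libraries lay below all oil libraries, with means of -2.39 ± 0.44 and -3.02 ± 0.13 (SD, n = 3; exact permutation test, two-sided, p = 0.1, the smallest possible; 0.6 after Benjamini-Hochberg adjustment over 6 ratios, of which 5 were chosen after the values were seen). With GENCODE M21 exon lengths, in which Itga1 has 18599 instead of 5984 bases, the groups overlap. The separation thus depends on the lengths used. For Itgb2 the means were -2.15 ± 0.27 and -2.56 ± 0.34, with overlapping libraries (exact p = 0.2), and for Itgb7 -5.04 ± 0.23 and -5.08 ± 0.11 (exact p = 0.7). Of the summed FPKM of Itga1, Itga2 and Itga4 by the authors' lengths, Itga1 made up 29.8%, 24.5% and 32.1% in oil and 14.9%, 23.7% and 22.7% in tamoxifen. Itga4 made up 46.7% to 48.9% in oil and 55.2% to 61.7% in tamoxifen. By these lengths Itga1 and Itga2 had means of 4.0 and 3.59 FPKM over all libraries. By GENCODE M21 exons the means were 1.29 and 2.12 FPKM, so the Itga1 share is smaller by those lengths. Among Itgal, Itgam and Itgax by the authors' lengths, Itgax was the largest in 5 of 6 libraries. It made up 43.7% to 60.0% of their sum over the 6 libraries, and Itgal was the largest in tamoxifen replicate 2, at 45.8%. These shares follow the authors' gene lengths, by which Itgax and Itgal had means of 27.2 and 20.1 FPKM over all libraries. By GENCODE M21 exons the means lay closer, at 30.1 and 28.9 FPKM, so the lead of Itgax depends on the lengths used.

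**Figure D4:**
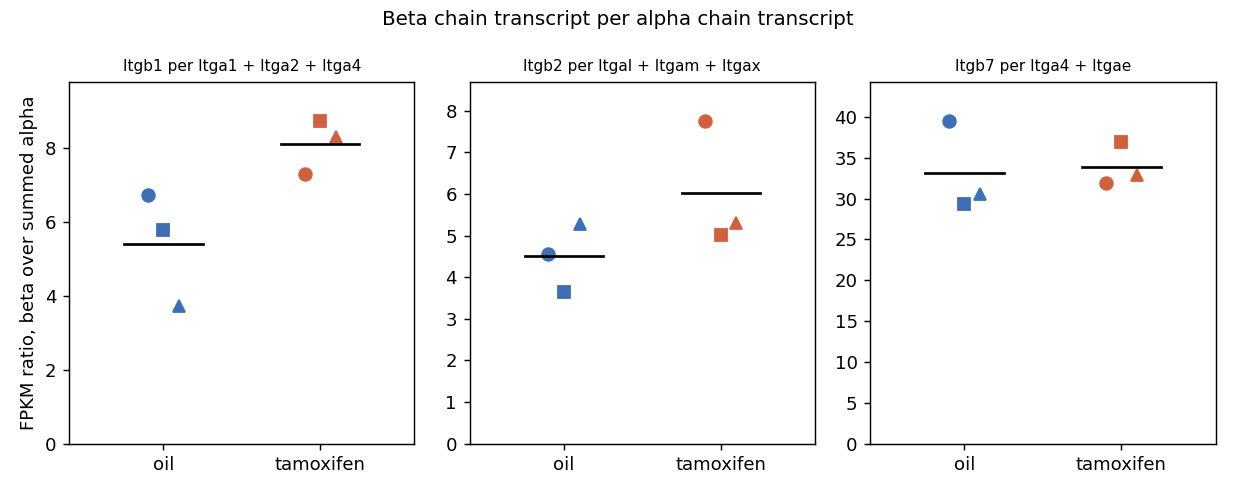
FPKM of each beta chain divided by the summed FPKM of its alpha partners among the 10 genes (y axis, linear from 0) in each library, with group means as bars (n = 3). FPKM are by the authors' gene lengths. For Itgb1 the tamoxifen libraries lie at 7.29 to 8.73 and the oil libraries at 3.72 to 6.74, while those of Itgb2 and of Itgb7 overlap. With GENCODE M21 exon lengths the Itgb1 groups overlap too.

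Over the 6 libraries, the genes whose centred log2 CPM lay closest to that of Itga1, of 10810 compared, were Yeats2, which encodes a subunit of a histone acetyltransferase complex, 9930111J21Rik1, whose counts are uncertain because it has a close paralog, and Diap2 (root mean square difference 0.08, 0.13 and 0.15 log2 units). Yeats2 stood at 14.5, 15.7 and 15.7 CPM in oil and 5.19, 8.28 and 5.73 CPM in tamoxifen. Closest to Itga2 were Rtn4ip1, a mitochondrial protein's gene, Mxi1, which encodes a MYC antagonist, and Nfkbie, which encodes an inhibitor of NF-kB (0.11, 0.15 and 0.17 log2 units). Itga1 and Itga2 themselves differed by 0.47 log2 units, and Itga2 was number 457 in order of likeness to Itga1. These likenesses describe 6 libraries of 2 groups.

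Of 16 other integrin chains, 10 were listed and 5 passed the filter on low counts, all with lower estimates and none past the threshold. Itga5, the alpha chain of the classical fibronectin receptor, was the most abundant, at 6.67 ± 1.83 FPKM in oil and 4.86 ± 2.59 in tamoxifen (log2 fold change -0.45, SE 0.37). Itgad, which lies beside Itgax and encodes CD11d, stood at 2.86 ± 1.15 and 2.57 ± 0.114 FPKM, and Itgav at 1.44 ± 0.417 and 1.10 ± 0.259. Itgb3, which encodes CD61, stood at 16.5, 15.4 and 7.20 CPM in oil and 2.22, 11.9 and 2.48 CPM in tamoxifen, with overlapping groups (log2 fold change -1.22, SE 0.63). Its partner on platelets, Itga2b, had 1 count in each group.

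Genes that act on integrins were mixed in direction. Of 27 genes of inside-out activation, which carry a signal from other receptors to talin, 21 were tested, 7 higher and 14 lower, with a median log2 fold change of -0.06. Rap1b, the small GTPase that recruits talin, had means of 1599 ± 117 CPM in oil and 1899 ± 66.3 in tamoxifen (log2 fold change 0.25, SE 0.14), and the adaptor gene Skap2 at 56.1 ± 5.45 and 70.5 ± 5.56 CPM (0.33, SE 0.20). Both lay higher in every tamoxifen library without passing. Of 11 negative regulators 7 were tested, 3 higher and 4 lower (median -0.04), with Flna, which encodes the filamin that competes with talin, at -0.39 (SE 0.21). Of 30 adhesion complex genes 22 were tested, 11 higher and 11 lower (median 0.00). Lims1, which encodes the adaptor PINCH-1, stood at 136, 115 and 113 CPM in oil and 160, 160 and 164 CPM in tamoxifen (log2 fold change 0.41, SE 0.17), and Crk, a gene of an SH2 adaptor, at 29.5 ± 3.74 and 19.3 ± 1.91 CPM (-0.61, SE 0.25). Surface partners such as tetraspanins were 6 higher and 6 lower of 12 tested (median 0.02; Tspan32 0.27, SE 0.18; Ptprc -0.34, SE 0.24). Of 30 ligand genes only 4 were tested, all with lower estimates (median -0.24), among them Icam1 (-0.30, SE 0.19) and Spp1 (-0.39, SE 0.28), which encodes osteopontin. None of the genes in these lists passed (edgeR adjusted p = 0.999 for each gene named), and 2 of the 66 tested, Lims1 and Crk, had an unadjusted p under 0.05, against 3.52% of all genes.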

How the data were processed

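A single table covers the 6 libraries, in 2 groups of 3. Its counts per gene and library are whole numbers that the authors deposited without normalization. The authors' deposited FPKM values derive from these counts: over the 7282 genes counted at least 50 times in each library, the gene length implied by count and FPKM was the same in all libraries within a relative spread of 2.67e-05. The deposited p-values and q-values are the authors' own, from edgeR by the name of the table. HISAT2, StringTie and mm10 are named, per the submitters' processing notes, without roles or versions; the sources used here do not state the counter, its strand setting or the annotation. Per the labels' protocols, cDNA was made with the SMARTer Ultra Low kit and amplified by PCR, with no molecular identifiers named, so limits from counts cover counting error only (0.474 to 0.567 CPM for a count of 0, taken as 3 counts).

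The quasi-likelihood test of edgeR (version 4.0.16, in R 4.3.3) was run on the counts with TMM factors, its default low-count filter and no term besides group, adjusted by Benjamini-Hochberg over all 10811 genes tested. Standard errors come from its F statistic, and intervals from the t distribution with its total degrees of freedom. Log2 CPM used a prior count of 2. Single values were compared by exact permutation tests over libraries. The fits were checked on simulated counts. Each of these was tried in turn: upper-quartile or RLE factors; limma-voom (limma 3.58.1) or DESeq2 1.42.0; no filter, or at least 10 counts throughout a group; a block on replicate number; log2 FPKM in limma (pseudocount 1 or 0.1); a length trend per library as an offset; and each library left out. The integrin genes and the lists were chosen with earlier results of these data known. Named besides the integrins were, of each list, members past the threshold or else the 2 with the smallest p, the 3 other integrin chains with the highest FPKM, and the 3 genes most like Itga1 and Itga2; further markers were named after their values were seen. One gene that this rule would name is not reported here. Exon overlaps and lengths came from GENCODE M21 and promoters from RefSeq (GRCm38.p6).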

Additional observations from a re-analysis of the deposited data

How the results depend on the processing

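Over 11 integrin rows there were 187 alternative values of the log2 fold change, of which 180 kept the sign and 0 passed the threshold. The 7 that turned were Itgal and Itgb1 (0.07 each) and Itgb2 (0.15) without oil replicate 2, Itgb2 without tamoxifen replicate 3 (0.10), with limma-voom (0.00) and with the replicate block (0.00), and the second Itgam model without tamoxifen replicate 2 (-2.22); the cause was not tested. With 1 library left out, Itgb2 ranged from -0.16 to 0.15, Itgal from -0.66 to 0.07, Itgb1 from -0.44 to 0.07, and the second Itgam model from -2.22 to 2.58. The number of genes past the threshold among all genes was 1, and it was 18 with DESeq2, 6 with no filter, and 0 with the replicate block and with limma on log2(FPKM + 1), with and without a filter, and log2(FPKM + 0.1); with 1 library left out it was 0 to 6. No integrin row and no gene of the activation, adhesion, partner and ligand lists was among them. The difference in the Itga1 to Itga2 log2 ratio was -0.34, and leaving out 1 library moved it between -0.61 and 0.03, turning it only without tamoxifen replicate 1 (0.03). The replicate numbers are shared by the groups but are not stated to pair the libraries: same-numbered deviations correlated at -0.07, 0.27 and 0.16, so the block is given as an alternative only; with the replicate block Itga1 had a log2 fold change of -1.23 (edgeR adjusted p = 0.421) and the ratio differed by -0.34. Itgae rested on 33 counts in oil and 85 in tamoxifen. Summing the Itgam rows, the use of GENCODE lengths and 5 of 6 ratios were chosen after seeing the data.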
